A study of Mus musculus with 149 samples.

Results

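A single challenge with 150 ng of thymic stromal lymphopoietin (TSLP) was compared with its carrier buffer in whole lungs of naive BALB/c mice, 6 h after the challenge. The comparison holds every labelled array of both groups, 8 arrays after 150 ng TSLP and 6 arrays after buffer, 14 in all; the study's other groups are used only where named. The study also gave 500 or 1500 ng TSLP or saline, took lungs at 6 or 24 h, and repeated the series in mice sensitized with ovalbumin (OVA). Each array comes from 1 labelled animal, and the series describes a plan of 8 animals per combination. The mice of the main comparison were not sensitized, and their genetic background was balb/c in both groups. The buffer is labelled 0.1% MSA, an abbreviation that the labels do not expand. A second control group, 8 naive mice given saline at the same time, is set against the buffer lungs further on. Sex, age and route of challenge are not stated in the labels.

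TSLP is an epithelial cytokine that binds a receptor made of Crlf2 and Il7r and signals through Jak1, Jak2 and STAT5. In the airway it acts on dendritic cells, basophils, mast cells and innate lymphoid cells, and it is known for favouring type 2 inflammation, in which Il4, Il5 and Il13 drive eosinophils and mucus. Cish and the Socs genes are feedback inhibitors that STAT5 is known to induce.

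Levels are given on the log2 scale of the deposited RMA values, so 1 unit is a doubling, and each gene is represented by its brightest probe set. Lung identity held on every array: the mean log2 level over 8 alveolar type 2 genes was 13.61 to 13.70 after TSLP and 13.60 to 13.67 after buffer. However, 3 of the 14 arrays also carried genes of a stratified gullet epithelium. Krt13, a keratin of such epithelia, was at 13.78 on TSLP replicate 5 and at 10.40 and 13.53 on buffer replicates 4 and 6, and Krt4 was high on the same arrays. Across the whole study 6 arrays carry this signature, and the other 143 had at most 6.06 for Krt13. The mean over 12 skeletal muscle genes was 12.72 on the same TSLP array, and 12.48 and 11.81 on those buffer arrays, against 6.53 to 6.95 on the remaining TSLP arrays and 6.72 to 7.03 on the remaining buffer arrays. The 16 measured gullet genes had a median difference of -0.65 between TSLP and buffer and the 12 muscle genes one of -1.13, with none of them past the threshold. Without the 3 arrays these medians were -0.07 and -0.15. The remaining comparisons are therefore given with all arrays and, where it matters, without these gullet arrays, which leaves 7 TSLP and 4 buffer arrays.

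The groups also differed in the beta-actin 3' minus 5' log2 difference, a measure of how far RNA loss or incomplete labelling lowers the 5' signal. It was 1.64 ± 0.31 (SD, n = 8) after TSLP and 2.14 ± 0.31 (SD, n = 6) after buffer, a difference of -0.49 (SE 0.17, two-sided exact permutation p = 0.016, adjusted over 2 tests to 0.016). Against saline, with 2.42 ± 0.51 (SD, n = 8), the difference was -0.77 (SE 0.21, exact permutation p = 0.0014, adjusted p = 0.0028). Single arrays crossed: TSLP replicate 4, at 2.27, lay among the buffer arrays, and buffer replicate 6, at 1.57, lay among the TSLP arrays. The other such controls did not move one way: the pyruvate carboxylase 3' minus 5' difference was 2.45 ± 0.17 (SD, n = 8) after TSLP and 2.68 ± 0.16 (SD, n = 6) after buffer, and the transferrin receptor 3' minus middle difference was 0.98 ± 0.24 after TSLP and 0.83 ± 0.21 after buffer. No test was run on these 2 measures. The beta-actin measure was entered as a covariate in an alternative fit, and its part in the results was otherwise not tested.

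**Figure D1:**
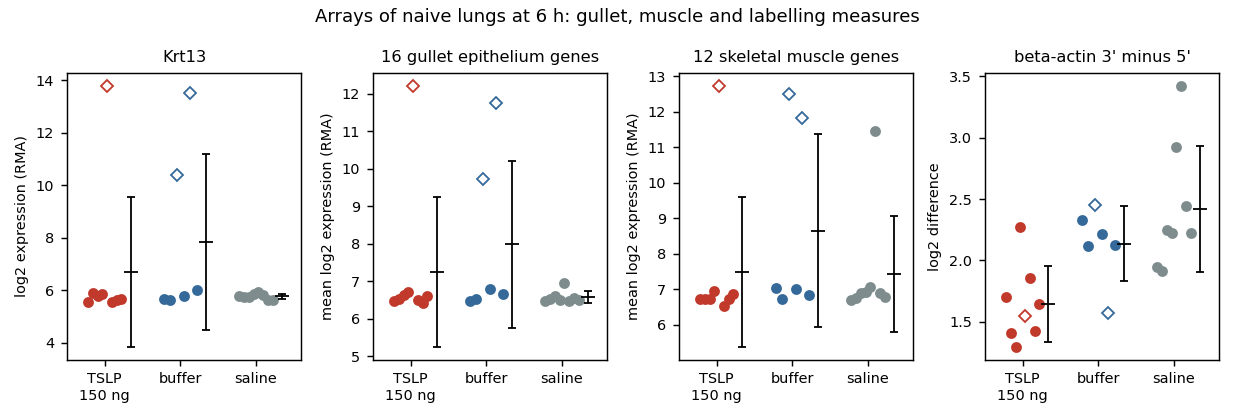
Measures per array in naive lungs at 6 h, for 150 ng TSLP (red, n = 8), buffer (blue, n = 6) and saline (grey, n = 8): Krt13 log2 expression, the mean log2 level of 16 gullet epithelium genes and of 12 skeletal muscle genes, and the beta-actin 3' minus 5' log2 difference. Open diamonds are the gullet arrays, and bars are means with SD. The 3 diamonds lie far above all other points in the first 3 panels, except that 1 saline array is also high in muscle genes, and the TSLP points lie mostly below the buffer points in the last panel.

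The lung transcriptome shifted broadly but by small steps. With limma fitted over all arrays of the study, 3674 of 13494 genes (27.2%) differed between 150 ng TSLP and buffer at an adjusted p under 0.05. Of these, 1483 (11%) rose and 2191 (16.2%) fell, and the median difference over all genes was -0.05. The median size of a called change was 0.27 log2 units (1.2-fold), and 95% of the called changes were within 0.5 units. Only 3 genes passed 1 unit. In 55 genes (0.408%) the values of both groups did not overlap, 19 higher and 36 lower after TSLP, and 18 and 29 of them also passed the test. Examples, chosen after their values were seen, were Trim6 (0.46, adjusted p = 0.00092) among the higher genes, and Cep135, a centriole protein (-0.51, adjusted p = 9.8e-06), and the chromatin remodeller Baz1b (-0.44, adjusted p = 1.2e-05) among the lower genes.

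The count depended on which arrays were used. Without the gullet arrays 1805 genes rose (13.4%) and 3136 fell (23.2%), and 3455 of the 3674 genes, 94%, were again called in the same direction with none reversed. With the beta-actin measure as a covariate 742 rose and 897 fell, and 1286 of the 3674 genes, 35%, were called by both fits. Leaving out buffer replicate 5 alone brought the count to 2039. After quantile normalization 1737 genes rose and 1640 fell, so that the excess of falls seen with the deposited scale was not kept. Where a called gene had a further probe set, it was called in the same direction in 644 of 1890 genes (34.1%) and in the opposite direction in 261 (13.8%).

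On their brightest probe sets, the TSLP receptor and its signalling chain showed little movement against buffer at 6 h. Of 17 measured genes of the receptor and STAT5 list, 2 rose, 1 fell and 14 did not pass the test, with a median difference of 0.01 against -0.05 over all genes. These shares, 2 and 1 of 17, are to be read against the 11% and 16.2% of all genes that rose and fell. With saline as control, 6 of the 17 rose and 4 fell, beside 2850 and 3951 of all 13494 genes. Il2rg, Socs1 and Pim1 had no named probe set and were not analysed here. In whole lung, fewer cells of a type and less RNA per cell cannot be told apart for any of these genes.

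Crlf2, the TSLP-binding chain of the receptor, had a lowest, median and highest log2 level of 10.15, 10.37 and 10.65 after TSLP, against 10.26, 10.56 and 10.74 after buffer. The ranges overlapped widely, although 7 of 8 TSLP arrays lay below the buffer mean. The difference was -0.15 (SE 0.07, adjusted p = 0.094) with all arrays and -0.26 (adjusted p = 0.0055) without the gullet arrays, and leaving out TSLP replicate 6 or buffer replicate 6 alone gave an adjusted p of 0.034 or 0.018. Il7r, the chain shared with the interleukin 7 receptor, ran at 10.68, 10.87 and 11.07 after TSLP, against 10.43, 10.76 and 11.16 after buffer, a difference of 0.06 (SE 0.15, adjusted p = 0.82). The TSLP arrays lay inside the range of the buffer arrays. A second Il7r probe set differed by 0.48 (adjusted p = 0.067). The cytokine's own transcript, Tslp, differed by -0.11 (SE 0.12, adjusted p = 0.53).

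Among the kinases and factors below the receptor, Jak1 rose by 0.18 (SE 0.06, adjusted p = 0.026) and Stat5b by 0.15 (SE 0.05, adjusted p = 0.025), each above the buffer mean on 8 of 8 TSLP arrays. Both rises were small, and the calls depended on single arrays: without buffer replicate 4 the adjusted p was 0.12 for Jak1 and 0.15 for Stat5b, and Stat5b was also not past the threshold without TSLP replicate 1 or buffer replicate 5 (0.067 and 0.05). With the gullet arrays left out Stat5b was not past the threshold (adjusted p = 0.11) and Jak1 lay just under 0.05 (0.18, adjusted p = 0.0499). A further probe set of each gene went the other way, at -0.31 (adjusted p = 0.0054) for Jak1 and -0.30 (adjusted p = 0.029) for Stat5b, and another Jak1 probe set differed by 0.07 (adjusted p = 0.53). The phosphatase gene Ptpn11, which encodes SHP2, fell by 0.29 (SE 0.08, adjusted p = 0.0047) on its brightest probe set, on 8 of 8 arrays, while its other probe set rose by 0.60 (adjusted p = 0.0034). No direction for Ptpn11 as a whole gene can be read from these opposite values. Jak2 differed by 0.07 (SE 0.04, adjusted p = 0.17), Stat5a by 0.12 (SE 0.07, adjusted p = 0.20) and Stat6, the factor downstream of Il4 and Il13, by -0.11 (SE 0.05, adjusted p = 0.12). Stat6 passed the threshold without the gullet arrays (-0.21, adjusted p = 0.0029) and without buffer replicate 6 alone (adjusted p = 0.015).

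The feedback inhibitors are the usual transcript readout of STAT5. Cish ran at 9.90, 10.12 and 10.22 after TSLP, against 9.73, 10.09 and 10.28 after buffer, and the difference was 0.05 (SE 0.16, adjusted p = 0.85). The TSLP and buffer arrays were interleaved. With saline as control, the Cish difference was 0.37 (adjusted p = 0.026). Socs3 differed by -0.09 (SE 0.14, adjusted p = 0.66). Socs2 differed by 0.15 on its brightest probe set and was not called. Its further probe sets differed by 0.33, 0.10 and -0.05 (adjusted p = 0.016, 0.54 and 0.70). Bcl2, also in the list, differed by -0.03 on its brightest probe set and was not called. Its further probe sets differed by 0.37, -0.08, 0.06 and 0.05 (adjusted p = 0.0030, 0.47, 0.71 and 0.77). The promoters of Cish and of Il7r are shown because Cish is the classical STAT5-induced gene and Il7r encodes a receptor chain, and both windows hold the letters of a STAT5 site, TTCNNNGAA, where N is any base. They are RefSeq sequences on GRCm38.p6, from 250 bases before to 50 bases after the gene's start, written 5' to 3' on the gene's strand, with matches in capitals. The Cish window is chr9:107296409-107296708 on the plus strand and the Il7r window is chr15:9529827-9530126 on the minus strand.
Cish: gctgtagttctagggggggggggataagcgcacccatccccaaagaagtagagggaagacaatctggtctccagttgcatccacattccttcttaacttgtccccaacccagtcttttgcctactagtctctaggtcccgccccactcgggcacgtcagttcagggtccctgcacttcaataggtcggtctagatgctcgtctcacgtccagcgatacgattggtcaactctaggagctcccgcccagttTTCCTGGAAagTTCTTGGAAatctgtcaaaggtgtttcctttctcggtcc
Il7r: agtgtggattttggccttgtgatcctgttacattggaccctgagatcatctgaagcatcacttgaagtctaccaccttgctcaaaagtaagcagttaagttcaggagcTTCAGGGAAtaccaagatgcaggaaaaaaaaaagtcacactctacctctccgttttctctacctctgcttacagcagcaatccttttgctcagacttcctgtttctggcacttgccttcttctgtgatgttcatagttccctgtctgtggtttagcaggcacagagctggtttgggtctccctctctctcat
The motif reads the same on both strands. The Cish window holds 2 matches, 2 bases apart and not overlapping, and the Il7r window holds 1. The motif occurs in 2726 of 32851 RefSeq promoters of this length (8.3%). Counted by gene, it occurs in promoters of 2582 of 27025 genes (9.55%), and of 4 of the 14 list genes that had a promoter in the table. A match describes the letters only.

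Genes of type 2 airway inflammation were not called against buffer. Of 17 measured members 0 passed the test in limma, against 27.2% of all genes, with a median difference of 0.03. The cytokine genes were low on all arrays and interleaved: Il13 averaged 6.09 ± 0.17 after TSLP and 5.88 ± 0.14 after buffer, a difference of 0.21 (SE 0.33, adjusted p = 0.66). The difference was 0.11 for Il4 (SE 0.19, adjusted p = 0.71) and 0.03 for Il5 (SE 0.28, adjusted p = 0.96). These SEs use the spread pooled over all 20 groups, which for Il13 was wider than the SDs of the compared groups. Over the alternative limma fits, saline as control among them, the adjusted p for Il13 ran from 0.062 to 0.85. The alarmin Il33 differed by 0.03 (SE 0.13, adjusted p = 0.90). Among the chemokines, the eotaxin Ccl11 differed by 0.44 (SE 0.34, adjusted p = 0.33), Ccl24 by -0.17 (SE 0.39, adjusted p = 0.79), and Ccl17, a T helper 2 cell attractant, by 0.31 (SE 0.33, adjusted p = 0.51). With saline as control, 3 of the 17 rose and 0 fell, beside 2850 and 3951 of all 13494 genes. These 3 were Ccl17 (0.95, adjusted p = 0.0063), Il33 (0.35, adjusted p = 0.011) and Ccl11 (0.77, adjusted p = 0.033). Il25, Il9, Retnla, Arg1, Il1rl1 and Ccl26 had no named probe set and were not analysed here.

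Clca1, a protein secreted by goblet cells, had the widest difference of the list. It ran at 5.61, 5.96 and 8.94 after TSLP, against 4.26, 4.95 and 6.16 after buffer and 4.72, 5.32 and 7.80 after saline. TSLP replicates 1, 4 and 6 were at 8.01, 8.94 and 8.13, and the other 5 TSLP arrays were between 5.61 and 6.16 and overlapped the buffer arrays. The difference of 1.66 (SE 0.67) had an adjusted p of 0.053 and was positive on 8 of 8 arrays. It passed with the beta-actin covariate (2.06, adjusted p = 0.037), after quantile normalization (1.75, adjusted p = 0.042), and when TSLP replicate 2, 3, 5 or 8 was left out (adjusted p = 0.041 to 0.047), and was at 1.43 (adjusted p = 0.15) without the gullet arrays. The mucin Muc5ac, from the same cells, differed by -0.19 (SE 0.36, adjusted p = 0.72). Of 13 goblet cell and mucus genes 0 passed the test, against 27.2% of all genes.

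**Figure D2:**
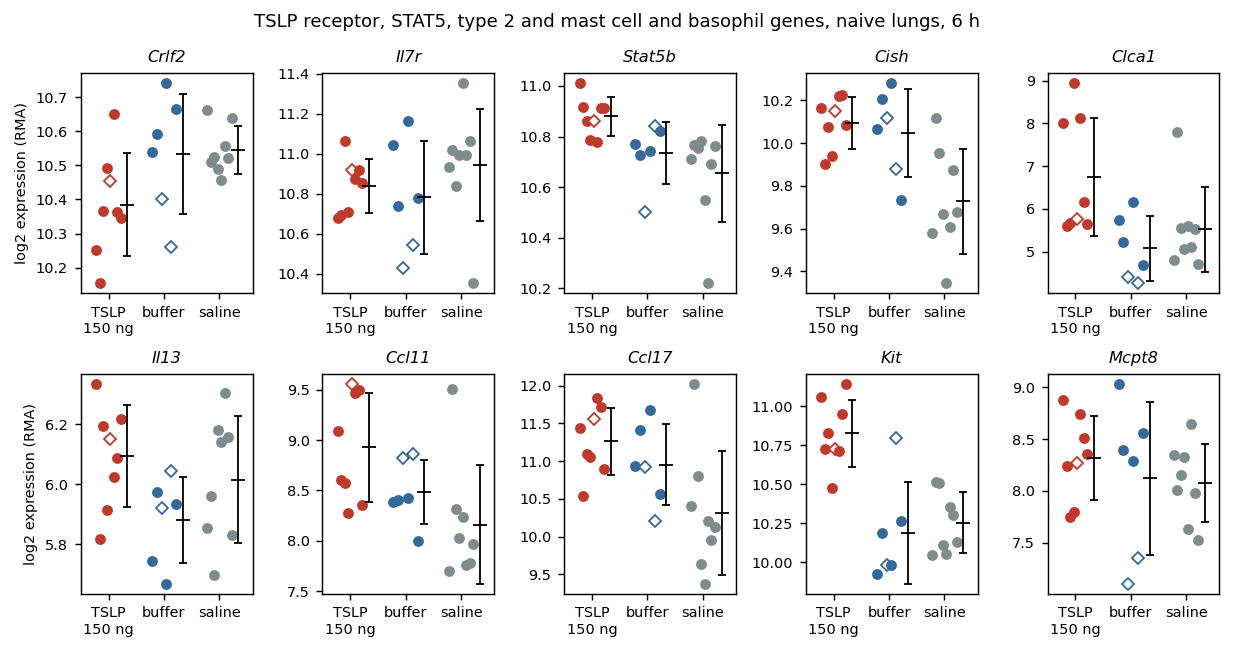
Log2 expression per array of TSLP receptor, STAT5 pathway, type 2, mast cell and basophil genes for 150 ng TSLP (red, n = 8), buffer (blue, n = 6) and saline (grey, n = 8), with means and SD, and open diamonds for gullet arrays. Groups overlap for every gene shown, Clca1 is high on 3 TSLP arrays, and Kit is the gene whose TSLP points sit highest above the buffer mean relative to their spread.

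The 10 largest rises were Zfp40, Rbbp4, Elf4, Mapk1ip1l, Reep3, Pfn1, Tspan12, Slc6a14, Phf6 and Irf2bp2, at 0.80 to 1.10 log2 units. Zfp40, a zinc finger protein, ran at 8.56, 9.46 and 9.67 after TSLP, against 7.62, 8.16 and 9.10 after buffer, a difference of 1.10 (SE 0.24, adjusted p = 0.00053). Only TSLP replicates 4 and 6 lay below buffer replicate 6, and all TSLP arrays lay above the other 5 buffer arrays. The rise was 1.30 without the gullet arrays (adjusted p = 0.00017) and 0.52 with the beta-actin covariate (adjusted p = 0.053). The second probe set of Zfp40 differed by -0.01 (adjusted p = 0.95).

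Reep3, which shapes the endoplasmic reticulum, ran at 10.86, 11.64 and 12.01 after TSLP, against 10.06, 10.57 and 11.56 after buffer. The difference was 0.90 (SE 0.16, adjusted p = 3.7e-05), and it was again called with the covariate (0.42, adjusted p = 0.0022). Of the other 3 probe sets of Reep3, 1 rose by 0.67 (adjusted p = 0.00056), 1 fell by 0.21 (adjusted p = 0.026) and 1 differed by 0.17 (adjusted p = 0.28). Tspan12, a tetraspanin of the Norrin and Frizzled-4 receptor complex of vessels, ran at 9.67, 10.20 and 10.61 after TSLP, against 8.57, 9.40 and 10.23 after buffer, a difference of 0.86 (SE 0.17, adjusted p = 0.00015). Slc6a14, an amino acid transporter of airway epithelium, averaged 9.90 ± 0.34 after TSLP (SD, range 9.26 to 10.27), against 9.04 ± 0.35 after buffer (8.57 to 9.63), a difference of 0.85 (SE 0.20, adjusted p = 0.001), and its other probe set differed by 0.19 (adjusted p = 0.18). All 8 TSLP arrays exceeded the buffer mean for each of these genes, and each group overlapped the other through 1 or more arrays.

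Irf2bp2, a transcriptional corepressor, rose by 0.80 (SE 0.19, adjusted p = 0.0013), and a second of its 4 probe sets rose by 0.72 (adjusted p = 0.0015), while the other two differed by 0.01 and 0.23 (adjusted p = 0.96 and 0.15). The chromatin protein Phf6 rose by 0.81 (SE 0.18, adjusted p = 0.00069) and Pfn1, the actin-binding profilin, by 0.87 (SE 0.25, adjusted p = 0.0065), each on 7 of 8 arrays. The other probe set of Phf6 differed by 0.15 (adjusted p = 0.27). Pfn1 was also 1.12 higher in buffer lungs than in saline lungs (adjusted p = 0.00091). The histone-binding protein gene Rbbp4 rose by 1.01 (SE 0.29, adjusted p = 0.0067) and the ETS factor gene Elf4 by 0.95 (SE 0.27, adjusted p = 0.0059), but Rbbp4 was not past the threshold without buffer replicate 5 (adjusted p = 0.055), nor Elf4 without buffer replicate 4 (adjusted p = 0.067).

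In all 10 of these genes TSLP replicate 4 had the lowest value of its group and buffer replicate 6 the highest value of its group. These are the same arrays that crossed the groups in the beta-actin measure. With the covariate, Reep3, Tspan12, Slc6a14, Phf6 and Irf2bp2 were again called (adjusted p = 0.0022 to 0.048), whereas Zfp40, Rbbp4, Elf4, Mapk1ip1l and Pfn1 were not (adjusted p = 0.053 to 0.43). Without the gullet arrays, the 10 largest rises also included Iws1, a factor of transcript elongation (0.80 with all arrays, 1.07 without), Ptbp3, a splicing regulator (0.78 and 1.06), the actin methyltransferase gene Setd3 (0.71 and 1.03), the phosphatase gene Ptprj (0.73 and 1.04) and the endocytosis gene Fcho2 (0.73, adjusted p = 0.00057 with all arrays). All 5 were past the threshold with all arrays as well (adjusted p = 5.1e-05 to 0.0085). The other probe set of Fcho2 differed by -0.05 (adjusted p = 0.76).

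The 10 largest falls were Fcna, Hal, Kif27, Heatr4, Klf2, Cavin4, Capn3, Tnfrsf25, Rpp25 and Gpat2. Klf2, a shear-responsive transcription factor of endothelium and quiescent T cells, ran at 10.10, 10.39 and 10.93 after TSLP, against 10.87, 10.99 and 11.35 after buffer. Only 1 TSLP array reached the lowest buffer arrays, and the difference of -0.65 (SE 0.13, adjusted p = 0.00013) held with the covariate (-0.68, adjusted p = 0.0005) and without the gullet arrays (-0.60, adjusted p = 0.001). Saline lungs, however, ran at 10.14, 10.41 and 10.81, so TSLP lungs did not differ from them detectably (-0.03, adjusted p = 0.85) and buffer lungs were higher than saline lungs by 0.62 (adjusted p = 0.00034).

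Heatr4 ran at 6.38, 6.60 and 6.74 after TSLP, against 6.70, 7.37 and 7.73 after buffer, a difference of -0.66 (SE 0.12, adjusted p = 6.4e-05). The TSLP arrays were tightly grouped and only replicate 2 reached the 2 gullet arrays of the buffer group, and without the gullet arrays the difference was -0.94 (adjusted p = 1.6e-07). Tnfrsf25, the death receptor for the cytokine TL1A on T cells and innate lymphoid cells, ran at 8.38, 8.61 and 9.09 after TSLP, against 8.55, 9.37 and 9.71 after buffer. It fell by 0.63 (SE 0.15, adjusted p = 0.001) and was below the buffer mean on 8 of 8 arrays. Kif27, a kinesin-like protein of motile cilia, fell by 0.67 (SE 0.15, adjusted p = 0.00077), also on 8 of 8. Hal, the histidine-degrading enzyme, fell by 0.86 (SE 0.27, adjusted p = 0.012) on 7 of 8.

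Fcna, the lectin ficolin-A of the complement system, had the most negative fitted difference among called genes. It ran at 7.41, 7.94 and 10.15 after TSLP, against 8.39, 9.40 and 10.24 after buffer, and TSLP replicate 5, a gullet array, lay among the highest buffer values. The fall of 1.13 (SE 0.44, adjusted p = 0.043) was lost when any of TSLP replicates 1, 6, 7 and 8 or buffer replicates 4 to 7 was left out (adjusted p = 0.053 to 0.12). Cavin4 and Capn3, genes of muscle caveolae and muscle protease, fell by 0.65 each (adjusted p = 0.048 and 0.02). Both were higher on TSLP replicate 5 than on any other TSLP array, and both were called without the gullet arrays too (-0.57 and -0.56, adjusted p = 0.023 and 0.0028). Leaving out buffer replicate 4 alone gave an adjusted p of 0.21 for Cavin4 and 0.15 for Capn3. Rpp25 (-0.60, adjusted p = 0.039) and Gpat2 (-0.59, adjusted p = 0.031) also depended on single arrays. Rpp25 was lost without any of TSLP replicates 1, 3, 7 and 8 or of buffer replicates 2, 3, 4, 5 and 7 (adjusted p = 0.05 to 0.11), and Gpat2 without any of TSLP replicates 3, 6 and 8 or of buffer replicates 2, 4, 5 and 7 (0.052 to 0.08). Capn3 was also lost without TSLP replicate 7 (0.052), and Cavin4 also without TSLP replicates 1, 2, 3, 6, 7 or 8 or buffer replicates 5 or 6 (0.06 to 0.11).

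Without the gullet arrays, some falls appeared that were not called with all arrays. They were Tert, the catalytic subunit of telomerase (-1.04, adjusted p = 0.0069 without, against -0.54, adjusted p = 0.14 with all arrays), the red cell anion exchanger gene Slc4a1 (-0.94, 0.026 against -0.53, 0.20), Erich6 (-0.88, 0.0011 against -0.43, 0.10), the cohesion gene Cdca5 (-0.86, 0.038 against -0.67, 0.074), myeloperoxidase gene Mpo (-0.82, 0.0065 against -0.52, 0.078) and the T cell adaptor gene Skap1 (-0.81, 0.0019 against -0.48, 0.05), with the 2 numbers in each pair being the log2 difference and its adjusted p. Tert, Cdca5, Mpo and Skap1 each passed when buffer replicate 6 alone was left out (adjusted p = 0.019, 0.023, 0.031 and 0.018), as did Erich6. Leaving out buffer replicate 4 alone also gave a call for Mpo, Erich6 and Skap1, TSLP replicates 4 or 6 for Cdca5, and TSLP replicates 3, 4 or 5 for Skap1.

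**Figure D3:**
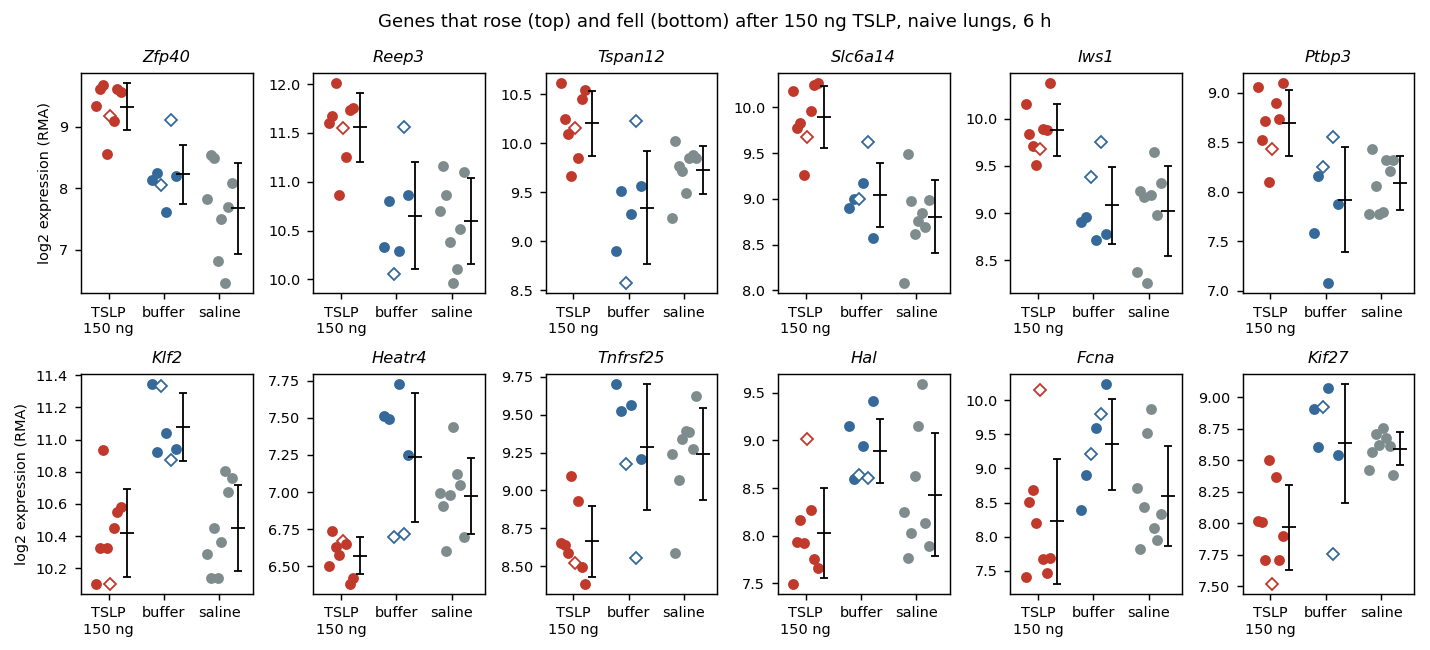
Log2 expression per array of 6 genes that rose (top row) and 6 that fell (bottom row), for 150 ng TSLP (red, n = 8), buffer (blue, n = 6) and saline (grey, n = 8), with means and SD, and open diamonds for gullet arrays. The highest buffer point of Zfp40 and Reep3 is a gullet array, Klf2 is higher in buffer lungs than in both other groups, and Fcna has 1 high TSLP point, also a gullet array.

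Cell type markers moved in small steps. Among 12 basophil and mast cell genes, 1 rose and 1 fell, against 11% and 16.2% of all genes, and 8 of the 12 had a positive difference, with a list median of 0.04. Kit, the stem cell factor receptor of mast cells and of some lung progenitors, ran at 10.48, 10.78 and 11.15 after TSLP, against 9.92, 10.09 and 10.79 after buffer. It rose by 0.64 (SE 0.13, adjusted p = 0.00023) on 8 of 8 arrays, a second probe set rose by 0.49 (adjusted p = 0.0093), and the call remained with the covariate (adjusted p = 0.0063). Hdc, the histamine-forming enzyme, fell by 0.20 (SE 0.07, adjusted p = 0.03), a call lost without any of TSLP replicates 1, 7 and 8 or of buffer replicates 2 to 5 (adjusted p = 0.056 to 0.12). Cpa3, a mast cell protease, and Fcer1a, the IgE receptor chain, differed by -0.30 and -0.32 (adjusted p = 0.28 and 0.27). Without the gullet arrays Cpa3 and Fcer1a were called lower (-0.57 and -0.62, adjusted p = 0.038 and 0.035). In that fit 1 of the 12 genes rose and 3 fell, against 13.4% and 23.2% of all genes. The list median was then -0.19, against -0.07 over all genes. Mcpt8, the basophil protease, ran at 7.74, 8.31 and 8.87 after TSLP, against 7.11, 8.34 and 9.03 after buffer, and differed by 0.19 (SE 0.23, adjusted p = 0.55).

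Of 9 dendritic cell genes 1 rose, against 11% of all genes. It was Zbtb46, a factor of conventional dendritic cells that endothelium also expresses (0.42, SE 0.11, adjusted p = 0.0025, 8 of 8 arrays). Its further probe sets differed by -0.26 and 0.34 (adjusted p = 0.041 and 0.0084). Ccr7, the receptor of migrating dendritic cells, differed by -0.32 (SE 0.14, adjusted p = 0.084), and by -0.48 without the gullet arrays (adjusted p = 0.011). It also passed without TSLP replicate 3 or buffer replicate 4 or 6 (adjusted p = 0.038 to 0.045). In the alveolar macrophage list Pparg fell by 0.33 (SE 0.10, adjusted p = 0.0094), the only call among 10 genes, and had an adjusted p of 0.052 without buffer replicate 5. In the monocyte list Csf1r fell by 0.17 (SE 0.06, adjusted p = 0.024), the only call among 8, and was lost without any of TSLP replicates 3 and 7 or buffer replicates 3, 5 and 7 (adjusted p = 0.051 to 0.077). Of 4 eosinophil, 7 neutrophil, 8 T cell, 9 cytotoxic cell, 7 type 2 innate lymphoid cell and 8 B cell genes, 0 passed the test. Among all genes 27.2% passed.

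Alveolar type 1 genes held the largest share of rises among the cell type lists. Of 10 measured genes 4 rose, against 11% of all genes, 0 fell, and the median difference was 0.14. Akap5, an anchoring protein, rose by 0.29 (SE 0.06, adjusted p = 0.00058), the caveolin gene Cav1 by 0.21 (SE 0.06, adjusted p = 0.0026), Hopx by 0.18 (SE 0.06, adjusted p = 0.01) and Emp2 by 0.13 (SE 0.04, adjusted p = 0.025). Without the gullet arrays 6 of 10 rose, against 13.4% of all genes, and with the covariate 1, against 742 of 13494. Hopx was lost without buffer replicate 2 (adjusted p = 0.085), and Emp2 without buffer replicate 2, 4 or 5 (adjusted p = 0.071 to 0.14). Ager, the most used type 1 marker, differed by 0.03 (adjusted p = 0.52). Of 8 type 2 genes, Slc34a2, a phosphate transporter, rose by 0.16 (SE 0.04, adjusted p = 0.0019) and Lpcat1, a surfactant lipid enzyme, by 0.11 (adjusted p = 0.047). The Lpcat1 call was past the threshold only when TSLP replicates 4 or 5 or buffer replicate 6 was the array left out (otherwise 0.053 to 0.15). Further Lpcat1 probe sets differed by 0.03 and -0.04 (adjusted p = 0.84 and 0.76).

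Of 12 endothelial genes measured, 3 rose and 1 fell, with a median of 0.20, while 11% of all genes rose and 16.2% fell. With the covariate 1 rose and 1 fell, against 742 and 897 of all 13494 genes, and the median was 0.02. Without the gullet arrays 2 rose and 1 fell, against 13.4% and 23.2% of all genes, and the median was 0.12. Calcrl, the receptor for adrenomedullin, rose by 0.32 (SE 0.07, adjusted p = 0.00022), VE-cadherin Cdh5 by 0.33 (SE 0.11, adjusted p = 0.021) and the VEGF receptor Kdr by 0.32 (SE 0.11, adjusted p = 0.029), while the angiopoietin receptor-like kinase Tie1 fell by 0.30 (SE 0.09, adjusted p = 0.0064). Calcrl and Tie1 were called in each of the 14 fits that left out 1 array. The other probe set differed by 0.02 for Calcrl (adjusted p = 0.95) and by -0.09 for Cdh5 (adjusted p = 0.45). Cdh5 was lost without buffer replicate 3 or 4 (adjusted p = 0.055 and 0.088) and Kdr without TSLP replicate 3 or 7 or buffer replicate 2, 4 or 5 (adjusted p = 0.056 to 0.27), nor was Kdr called without the gullet arrays (adjusted p = 0.085). Among 8 ciliated cell genes Ccdc39, needed for axoneme assembly, rose by 0.41 (SE 0.10, adjusted p = 0.00082). The other probe set of Ccdc39 differed by 0.02 (adjusted p = 0.95). In the same list Tppp3 fell by 0.24 (SE 0.10, adjusted p = 0.049). The Tppp3 call was past the threshold only when TSLP replicates 3, 4 or 6 or buffer replicate 6 was the array left out (otherwise 0.052 to 0.11). Of 12 fibroblast and smooth muscle genes 0 passed with all arrays, against 27.2% of all genes. Without the gullet arrays 5 rose and 0 fell, against 13.4% and 23.2% of all genes.

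**Figure D4:**
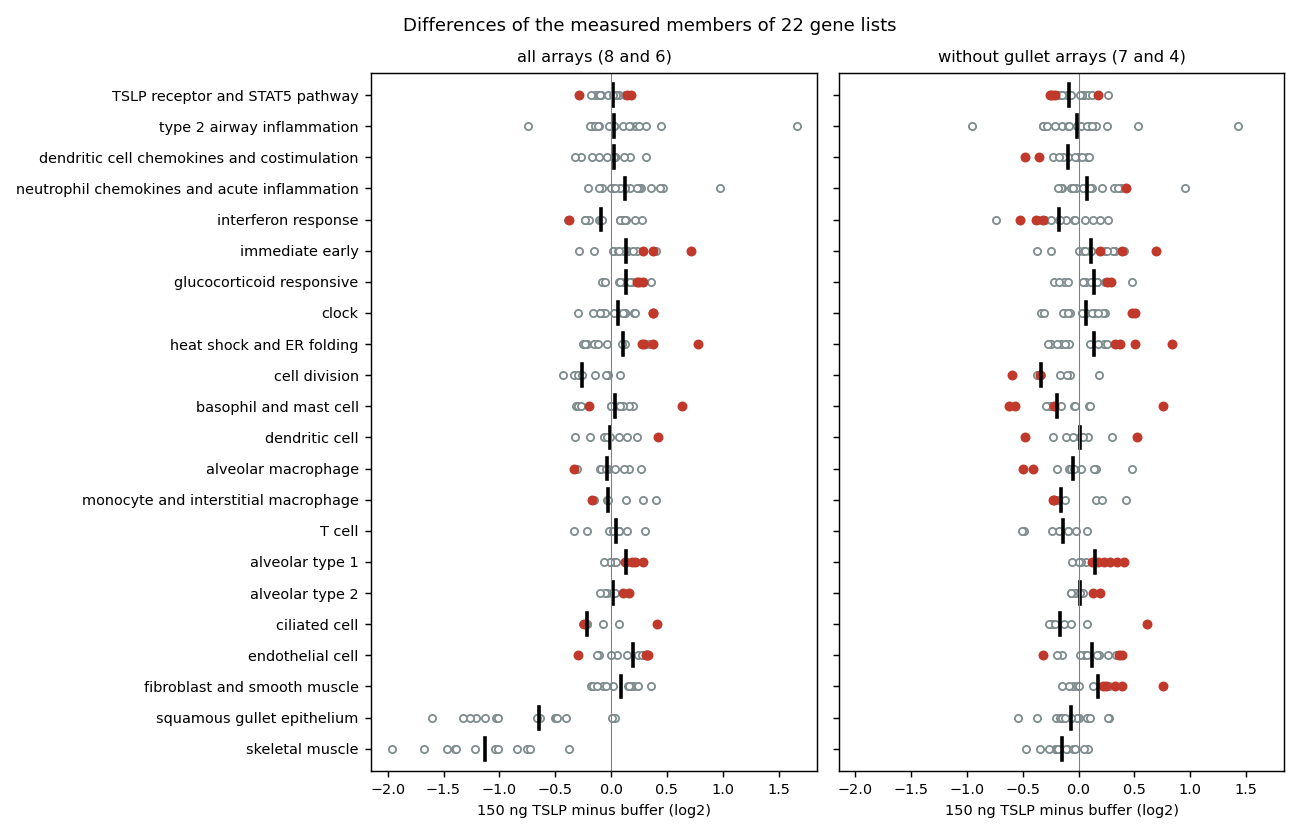
Log2 difference (150 ng TSLP minus buffer, naive, 6 h) of every measured member of 22 gene lists, with all arrays on the left and without the gullet arrays on the right. Red points passed the limma test at an adjusted p under 0.05, open grey points did not, and black bars are list medians. In the left panel 13 of 16 gullet genes and all 12 skeletal muscle genes lie to the left of 0, and both lists lie near 0 in the right panel, and most red points of the other lists lie within 0.5 of 0.

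Among stress and regulatory programmes, the list of heat shock and endoplasmic reticulum (ER) folding genes held 4 rises and 0 falls in 14 genes. The list median was 0.11, and among all genes 11% rose and 16.2% fell. Hyou1, an ER chaperone, ran at 9.01, 9.81 and 10.18 after TSLP, against 8.68, 8.92 and 9.53 after buffer and 6.13, 7.95 and 9.35 after saline. It rose by 0.78 (SE 0.24, adjusted p = 0.011) over buffer, on 8 of 8 arrays, and buffer was in turn 1.06 above saline (adjusted p = 0.0013). With the covariate the TSLP rise of Hyou1 was not called (adjusted p = 0.62), and its second probe set differed by -0.19 (adjusted p = 0.13). Dnajb9, an ER co-chaperone, rose by 0.38 (SE 0.10, adjusted p = 0.0026), the lectin chaperone Canx by 0.28 (SE 0.06, adjusted p = 0.00046) and Xbp1, the transcription factor of the unfolded protein response, by 0.29 (SE 0.08, adjusted p = 0.0029). These 3 were also called with the covariate (adjusted p = 0.011 to 0.034). The main ER chaperone Hspa5 differed by 0.11 (adjusted p = 0.24), and the heat shock genes Hspa1a and Hspa1b by -0.21 and -0.26 (adjusted p = 0.76 and 0.57).

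Of 17 immediate early genes 3 rose and 0 fell, and the 14 glucocorticoid responsive and 15 clock genes held 3 and 2 rises. Over all genes 11% rose and 16.2% fell. Fos ran at 9.62, 10.46 and 11.36 after TSLP, against 9.53, 9.70 and 10.32 after buffer, and rose by 0.71 (SE 0.21, adjusted p = 0.009) on 7 of 8 arrays. The TSLP arrays spread more widely than the buffer arrays and overlapped them. Junb rose by 0.38 (SE 0.11, adjusted p = 0.0068) and Zfp36, which destabilizes cytokine mRNAs, by 0.29 (SE 0.11, adjusted p = 0.046, past the threshold only when TSLP replicates 2 or 4 or buffer replicate 4 was the array left out, otherwise 0.054 to 0.1). Of 14 glucocorticoid responsive genes, Sgk1 (0.25, adjusted p = 0.048), Klf9 (0.23, adjusted p = 0.046) and again Zfp36 rose, but Sgk1 stayed past the threshold only when TSLP replicates 4, 5 or 6 or buffer replicate 6 was left out (otherwise 0.056 to 0.095), and Klf9 only without TSLP replicates 4 or 6 or buffer replicates 2, 4 or 6 (otherwise 0.05 to 0.23). Of 15 clock genes, with a median of 0.06, Clock (0.37, SE 0.08, adjusted p = 0.0006) and the repressor gene Nr1d2 (0.37, SE 0.11, adjusted p = 0.0055) rose. With the covariate 0 of the immediate early and 0 of the glucocorticoid responsive genes were called in either direction. Among all 13494 genes 742 rose and 897 fell in that fit. In the interferon list Oas2 fell (-0.38, adjusted p = 0.037, past the threshold only when TSLP replicates 4, 5 or 6 or buffer replicate 6 was left out, otherwise 0.063 to 0.12), the only call in 16 genes, and in the hypoxia list Ndrg1 fell by 0.31 (SE 0.09, adjusted p = 0.006), the only call in 13.

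Buffer lungs were also set against saline lungs. Between them 2014 genes differed (14.9%), but 365 with array weights, 1200 with the beta-actin covariate and 1236 without the gullet arrays. With all arrays, 10 of 18 neutrophil chemokine and acute inflammation genes were higher in buffer lungs, against 1092 of all 13494 genes. The 10 included the neutrophil attractants Cxcl1, higher by 1.38 (adjusted p = 0.017), and Cxcl3, higher by 2.39 (adjusted p = 0.023). Between 150 ng TSLP and buffer 0 of these 18 genes passed the test, against 27.2% of all genes. Cxcl1 was at 0.27 (adjusted p = 0.68) and Cxcl3 at 0.97 (adjusted p = 0.35). Set against the saline lungs, a comparison that takes in the carrier buffer too, the 150 ng TSLP lungs differed in 6801 genes (50.4%). Of these 2850 were higher. Of the 18 acute inflammation genes 13 were higher. The beta-actin covariate brought the count of 6801 genes to 2739.

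Other doses were given to separate naive mice and compared with the same 6 buffer arrays, so the values below share their controls. At 500 ng 5675 genes (42.1%) differed from buffer and at 1500 ng 2071 (15.3%), and the number called did not follow the order of the doses. With the beta-actin covariate 746 were higher and 1331 lower at 500 ng, and 332 and 297 at 1500 ng. Zfp40 differed from buffer by 1.10, 1.21 and 0.75 at 150, 500 and 1500 ng, Reep3 by 0.90, 1.15 and 0.81, Kit by 0.64, 0.69 and 0.33, and Heatr4 by -0.66, -0.46 and -0.41. Fos was 0.71 above buffer at 150 ng and 0.11 and 0.15 above it at 500 and 1500 ng. Clca1 differed by 1.66, 1.75 and 1.47, past the threshold at 500 ng only (adjusted p = 0.028). None of these genes followed the dose upward over all 3 steps.

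The direct comparison of 1500 with 150 ng used no buffer array and called 40 genes (0.296%), 18 without the gullet arrays. At an unadjusted p under 0.05, 912 genes were higher and 1110 lower. The basophil protease Mcpt8 was 1.11 higher at 1500 ng than at 150 ng (SE 0.21, adjusted p = 0.0065), and 1.10 higher without the gullet arrays (adjusted p = 0.0044). Against buffer it differed by 0.19, 0.98 and 1.30 at 150, 500 and 1500 ng (adjusted p = 0.55, 0.00029 and 6.3e-05). Cyp11a1, a steroid synthesis enzyme, was 0.66 higher at 1500 ng (adjusted p = 0.048, and 0.057 without the gullet arrays), and Iws1 was 0.63 lower (adjusted p = 0.048). Of the 20 largest rises and falls at 150 ng, none differed between these doses at the threshold.

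**Figure D5:**
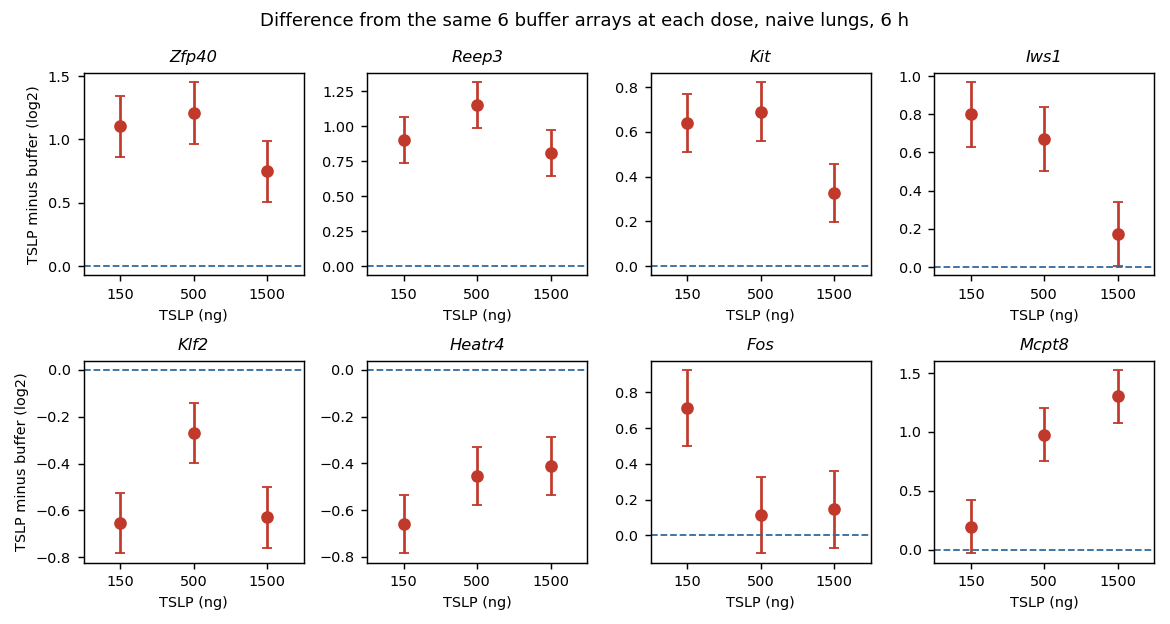
Fitted log2 difference from the same 6 buffer arrays, with SE, for 8 genes at 150, 500 and 1500 ng TSLP in naive lungs at 6 h (8 arrays per dose). The dashed line is the buffer mean. Mcpt8 lies near 0 at 150 ng and near 1 or above at the higher doses, whereas Zfp40, Kit and Klf2 are already away from 0 at 150 ng.

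The same dose had fewer calls in the other settings. In OVA-sensitized mice at 6 h, with 7 TSLP and 8 buffer arrays, 22 genes differed between 150 ng and buffer (0.163%, with 580 higher and 885 lower at an unadjusted p under 0.05), and in naive mice at 24 h, with 6 and 7 arrays, 29 genes did (0.215%). The difference between the OVA and naive effects at 6 h was itself tested, and 216 genes passed (1.6%), or 1466 without the gullet arrays. Among the genes named here it passed for Tspan12, which rose by 0.86 in naive mice and differed by 0.01 in OVA mice (difference -0.85, SE 0.24, adjusted p = 0.037), for Klf2, at -0.65 and 0.10 (difference 0.76, SE 0.18, adjusted p = 0.015), and for the brightest probe set of Ptpn11, at -0.29 and 0.09 (difference 0.38, SE 0.11, adjusted p = 0.049). Klf2 was also lower than buffer in naive mice at 24 h (-0.58, adjusted p = 0.022). Zfp40 differed by 0.45 in OVA mice and by -0.02 in naive mice at 24 h (adjusted p = 0.47 and 0.99), and its OVA minus naive difference of -0.66 did not pass (adjusted p = 0.27).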

How the data were processed

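The deposited values are log2 expression values that the authors made by RMA from Affymetrix arrays, per the submitters' processing notes. No source used here gives the RMA version or a probe set filter. RNA had integrity numbers above 6, per the labels' protocols. The table holds 26166 probe sets by 149 arrays. Genes were represented by the brightest probe set that names 1 gene, giving 13494 genes. Several probe sets were present for 5715 genes. Arrays were grouped by their labels. Limma 3.58.1 in R 4.3.3 fitted 1 mean per group over 20 groups (residual df 129) with eBayes, and two-sided contrasts were adjusted by the Benjamini-Hochberg method across the 13494 genes, with a threshold of 0.05. Adjusted p-values are from this fit unless another test is named. An array was called a gullet array where both Krt4 and Krt13 exceeded their median by 2 log2 units.

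The members and the 38 gene lists were chosen with earlier results of these data known. Named genes were the 10 largest rises and 10 largest falls past the threshold with all arrays and without the gullet arrays (predicted genes skipped), up to 4 members per list with the smallest p, and the receptor and type 2 lists in full. Values for other members were added as examples. RMA values carry no detection calls, so the number of arrays and their spread limit the precision. The fit was also tested on simulated data for this comparison with 13494 genes. It found 50% of 50 genes shifted by 0.25 log2 units, 90% at 0.5, 96% at 1 and 100% at 2, with 12 false calls. The simulated noise was drawn independently for each gene and array, without gullet arrays or shifts shared across genes. The 12 false calls therefore cannot tell how many calls in the real arrays come from such shifts. Further probe sets of a gene were tested in a fit over all 26166 probe sets, with adjustment over those. They are given in the text for only part of the named genes that have them. Alternatives were other probe set summaries, a filter on dim genes, quantile normalization, array weights, a trended prior, these groups alone, the animal number as a block, the beta-actin covariate, saline as control, and leaving out the gullet arrays or each array in turn. Promoter sequences are from RefSeq.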

Additional observations from a re-analysis of the deposited data

Results flagged for a closer look

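Of 174 sets of one gene's values in one group, 13 held an array that stood apart from the rest of its group by Dixon's test; chance gives about 1 in 20. TSLP replicate 5, a gullet array, stood high for Fcna (10.15), Cavin4 (8.797), Capn3 (9.194) and Cpa3 (8.161). TSLP replicate 4 stood low for Pfn1 (9.624), Phf6 (6.706), Slc34a2 (13.05) and Hyou1 (9.006). Among buffer arrays, replicate 6 stood high for Mapk1ip1l (8.266) and Cav1 (13.05), and replicate 4 stood low for Cpa3 (6.527) and Stat5b (10.5) and high for Fos (10.32). All 13 thus fell on 4 of the 14 arrays: the 3 gullet arrays and TSLP replicate 4, which had the highest beta-actin 3' minus 5' difference of its group, at 2.27.

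The effect of 150 ng TSLP differed between OVA and naive mice at 6 h, by the interaction in the limma fit, for Tspan12 (-0.8513), Klf2 (0.7583) and Ptpn11 (0.3849, 0.30 with an adjusted p of 0.085 without the gullet arrays), each as the OVA effect minus the naive effect.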

How the results depend on the processing

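The count for 150 ng TSLP against buffer, 3674 genes, moved by over 1.5 times to 6806 with every probe set on its own, 5892 with array weights, 1177 in a fit on these groups alone, 1639 with the beta-actin covariate and 6801 with saline as the comparison group. Leaving out 1 array gave 2039 (without buffer replicate 5) to 4972. Against saline the covariate gave 2739. Buffer against saline gave 365 with array weights, 1200 with the covariate and 1236 without the gullet arrays. The 1500 minus 150 ng comparison gave 411 with array weights, 23 with the replicate block and 18 without the gullet arrays, and the OVA minus naive difference gave 1767 with array weights and 1466 when the gullet arrays were left out. The cause of these shifts was not tested. A fit on the main groups alone without the gullet arrays, added after seeing the data, gave 4793. Quantile normalization gave a share of rises of 51.4% here (40.4% on the deposited scale), 43.8% for buffer against saline (54.2%) and 57.1% for 1500 minus 150 ng (40%).

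Gene values changed sign with the mean of all probe sets for Jak1 (-0.017), Stat5b (-0.075) and Ptpn11 (0.16), with the gullet arrays left out and the covariate added for Kdr (-0.018), and against saline for Tppp3 (0.040). A further 34 sign changes were in values past the threshold in neither the main nor the alternative fit. Of 58 named genes past the threshold, 36 were past it in each fit that left out 1 array. The beta-actin difference was -0.60 to -0.43 with 1 array left out.

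Animal numbers recur between groups but did not pair the arrays: same-numbered arrays correlated at -0.54 to 0.28 in their deviations, over 0.1 in 3 of 6 pairs, and 1 array was closest to its own number. With the replicate block 3534 genes were called (1430 higher, 2104 lower).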

Other observations

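Gene families read from their symbols, chosen after the values were seen, moved unevenly. Of 15 genes of heterogeneous nuclear ribonucleoproteins, which bind and splice pre-mRNA, 9 rose and 0 fell after 150 ng TSLP (60%, against 11% of all genes), with a median of 0.15. Without the gullet arrays 12 rose, with the beta-actin covariate 5, and after quantile normalization 8, with 0 falls each time. Among all 13494 genes 1805, 742 and 1737 rose in these fits. Hnrnpc, which coats nascent transcripts, averaged 11.58 after TSLP and 11.10 after buffer, a rise of 0.49 (SE 0.08, adjusted p = 7.0e-06), and Hnrnpk rose by 0.24 (SE 0.04, adjusted p = 2.8e-05). Both were called with the covariate (adjusted p = 0.00034 and 0.0032). Hnrnpr differed by -0.12 (adjusted p = 0.24).

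Of 35 genes named Nduf, subunits and assembly factors of mitochondrial complex I, 13 fell and 0 rose (37.1%, against 16.2% of all genes that fell), with a median of -0.07. Ndufs4, a subunit needed for its assembly, averaged 11.63 after TSLP and 11.84 after buffer, a fall of 0.20 (SE 0.05, adjusted p = 0.00081), and Ndufb9 fell by 0.26 (SE 0.06, adjusted p = 0.00047). With the covariate 6 fell and 2 rose, against 897 falls and 742 rises among all 13494 genes. After quantile normalization 12 fell, against 1640 among all genes. Of 27 ribosomal protein genes 1 rose and 4 fell (3.7% and 14.8%), and of 31 proteasome genes 2 rose and 7 fell (6.45% and 22.6%). Among all genes 11% rose and 16.2% fell.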
